A study of Mus musculus with 12 samples.

Results

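The Toll-like receptor genes Tlr1, Tlr2, Tlr3, Tlr4, Tlr6, Tlr7, Tlr8 and Tlr9, the co-receptor gene Cd14 and the adaptor gene Myd88 were examined in sorted glomerular endothelial cells (GEC) of the mouse kidney. The 10 genes were chosen by name, as the rows whose gene name equals one of these symbols, out of 19564 genes listed in the deposited tables. Glomeruli were digested, and cells that carry a tdTomato (tdT) reporter were separated by the strength of that signal. This gave dim tdT and bright tdT cells, both labelled GEC, and their poly-A RNA was sequenced. WT mice (wild type) and AS mice (Col4a5 -/-, a model of Alport syndrome, in which a chain of type IV collagen is missing from the glomerular basement membrane) were compared, with 3 mice of each genotype. Each of the 6 mice gave 1 dim tdT and 1 bright tdT library, so that 12 libraries formed 4 groups of 3. All mice were C57BL/6, were 4 months old and carried TekCre tdTomato, so that the controls share the reporter with the AS mice. In this reporter Cre is driven by Tek, which marks endothelial cells but is also known to be active in part of the blood lineage, and a single Alport strain was studied.

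All 10 genes were listed in the dim tdT table (17811 genes) and 7 in the bright tdT table (17521 genes), where Tlr1, Tlr8 and Tlr9 were not listed and have no value here. Each gene listed in the bright tdT table had at least 8 counts over its 6 libraries and at least 4 in 1 of them. Counts on genes summed to 11440169 to 15074909 per library. CPM below is the count of a gene per 1000000 of these counts, and fold changes come from edgeR's quasi-likelihood test after TMM scaling, with p-values adjusted over all genes of a fit by the Benjamini-Hochberg method and 0.05 as the threshold. Nothing in the labels says more of a replicate than that it is another mouse, and the p-values measure the spread between 3 mice.

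Toll-like receptors bind conserved molecules of microbes and molecules released by damaged tissue, and pass the signal through adaptor proteins to NF-kappaB and interferon regulatory factors. TLR1, TLR2, TLR4 and TLR6 act at the cell surface, where TLR2 pairs with TLR1 or TLR6 to bind lipoproteins and TLR4 binds lipopolysaccharide with the help of CD14, while TLR3, TLR7, TLR8 and TLR9 bind nucleic acids in endosomes. MyD88 is the adaptor of all of them except TLR3, and in the kidney these receptors are known from macrophages and other leukocytes, from tubular cells and from endothelium.

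The label of the cells was checked against marker genes. In the bright tdT libraries the 12 endothelial markers summed to 11952 to 18183 CPM and the 4 pan-leukocyte markers (Ptprc, Coro1a, Laptm5 and Cd53) to 25.5 to 92.8 CPM. In the dim tdT libraries the endothelial markers summed to 694 to 1424 CPM in WT and 235 to 319 CPM in AS, and the pan-leukocyte markers to 6014 to 9231 CPM in WT and 10027 to 10616 CPM in AS. The 8 macrophage and monocyte markers, all listed in the dim tdT table, summed there to 2914 to 4691 CPM in WT and 7445 to 9397 CPM in AS, against 34.7 to 74.9 CPM for the 5 of 8 listed in the bright tdT table. The 5 B cell markers reached 518 to 1006 CPM and the 5 neutrophil markers 310 to 1220 CPM in the dim tdT libraries, against at most 5.92 CPM and 3.73 CPM in the bright tdT libraries for the 4 and the 1 of them listed there. No listed marker of these lists was at 0 in any library. Of the other kidney cells, the proximal tubule markers summed to 1087 to 5020 CPM in WT dim, 10.998 to 320.4 CPM in AS dim, 372 to 2389 CPM in WT bright and 40.8 to 418 CPM in AS bright tdT libraries. The podocyte markers reached 585 to 1159 CPM in WT dim, 529 to 570.3 CPM in AS dim and 1047 to 1507 CPM in bright tdT libraries, and the mesangial and mural markers 60.4 to 177 CPM in dim and 413 to 899 CPM in bright tdT libraries. The dim tdT libraries therefore held more RNA of leukocyte genes than of endothelial genes, which goes against their label, and they are called here by the sort gate. In such bulk samples fewer cells of a type and less RNA per cell cannot be told apart.

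**Figure D1:**
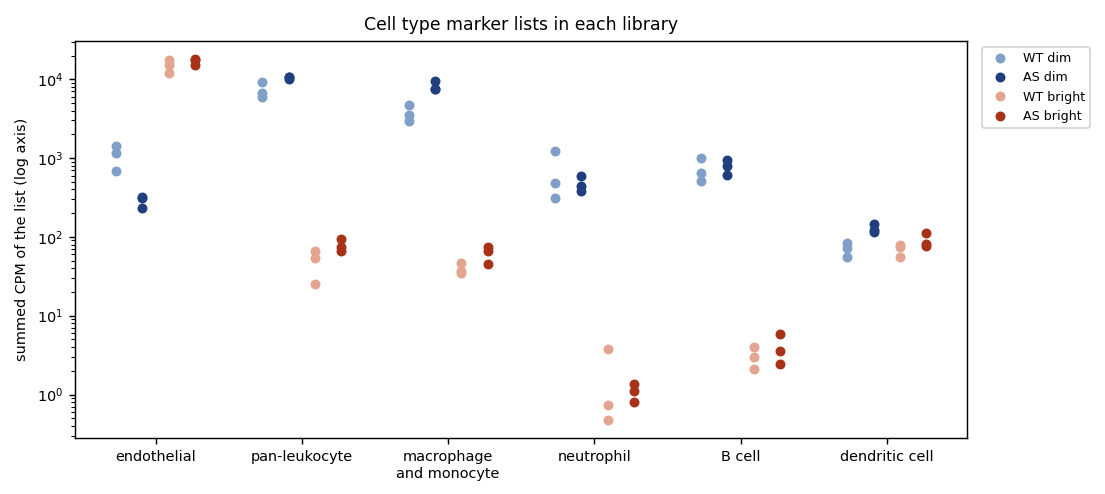
Summed CPM (log axis) of marker lists in each of the 12 libraries, with 1 point per library and colours for the 4 groups. The endothelial list is highest in the bright tdT libraries (11952 to 18183 CPM). The pan-leukocyte, macrophage and monocyte, neutrophil and B cell lists are highest in the dim tdT libraries. There the AS libraries lie above the WT libraries for macrophage and monocyte markers (7445 to 9397 against 2914 to 4691 CPM). The dendritic cell list, with 3 of 5 markers listed in the bright tdT table, overlaps between the gates in WT (55.1 to 77.7 CPM in bright, 55.4 to 82.9 CPM in dim). In AS it has 77.1 to 111 CPM in bright and 116 to 144 CPM in dim tdT libraries.

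On GRCm38 (Gencode M21) Tlr1 (chromosome 5, 64924679 to 64933563, minus strand) and Tlr6 (chromosome 5, 64952031 to 64960097, minus strand) are neighbours. Tlr7 (X, 167304929 to 167330558) and Tlr8 (X, 167242696 to 167264329) lie beside each other on the minus strand as well. Tlr2 is on chromosome 3 (83836272 to 83841767, minus strand), Tlr3 on chromosome 8 (45395665 to 45411080, minus strand) and Tlr4 on chromosome 4 (66827584 to 66930284, plus strand). Tlr9 (106222598 to 106226883, plus strand) and Myd88 (119335934 to 119341411, minus strand) are on chromosome 9. These 9 genes and Cd14 are protein-coding. Tlr3 is overlapped by the antisense gene Gm45542, and Myd88 by Slc22a14 on its own strand and Acaa1a on the other, which had 152 to 353 counts per library. Since the sources do not state which strand was counted, some reads of the overlapping parts may belong to the partner.

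RefSeq promoter windows on GRCm38.p6 matched 7 of the 10 genes, with 9 starts. They are shown for Tlr1, Tlr8 and Tlr9, which were listed in dim tdT cells alone, for Tlr3, which was higher in bright tdT GEC, and for Myd88, which did not pass the test between the gates. A set of 3 motifs, chosen after the sequences had been seen, was searched on both strands in the 250 bases before each start, namely the PU.1-type Ets core GAGGAA, the AP-1 site TGANTCA and the GATA-type site AGATAA, which do not overlap in these windows. Only the part of a window outside annotated exons is printed, 5′ to 3′ on the strand of the gene, with motif matches in capitals. The first 3 stretches end at the base before the Gencode gene, and those of Tlr3 and Myd88 lie within the span of the gene, before a start inside it.
Tlr1 (chr5:64933564-64933808, minus strand): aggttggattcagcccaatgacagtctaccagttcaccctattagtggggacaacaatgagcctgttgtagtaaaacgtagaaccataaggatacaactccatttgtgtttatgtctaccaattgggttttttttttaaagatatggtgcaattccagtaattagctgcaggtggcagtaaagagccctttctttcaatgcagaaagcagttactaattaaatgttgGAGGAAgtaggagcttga
Tlr8 (chrX:167264330-167264579, minus strand): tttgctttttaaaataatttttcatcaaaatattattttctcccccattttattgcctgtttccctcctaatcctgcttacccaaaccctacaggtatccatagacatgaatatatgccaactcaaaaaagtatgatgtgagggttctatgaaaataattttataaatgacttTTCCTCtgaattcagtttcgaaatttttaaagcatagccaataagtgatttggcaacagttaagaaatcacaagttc
Tlr9 (chr9:106222348-106222597, plus strand): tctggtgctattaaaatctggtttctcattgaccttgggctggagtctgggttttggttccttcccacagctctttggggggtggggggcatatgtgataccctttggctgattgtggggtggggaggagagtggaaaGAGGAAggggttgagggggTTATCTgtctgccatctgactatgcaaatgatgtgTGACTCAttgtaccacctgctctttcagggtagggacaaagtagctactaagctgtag
Tlr3 (chr8:45410381-45410452, minus strand): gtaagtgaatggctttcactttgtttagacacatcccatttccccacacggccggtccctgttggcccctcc
Myd88 (chr9:119340042-119340268, minus strand): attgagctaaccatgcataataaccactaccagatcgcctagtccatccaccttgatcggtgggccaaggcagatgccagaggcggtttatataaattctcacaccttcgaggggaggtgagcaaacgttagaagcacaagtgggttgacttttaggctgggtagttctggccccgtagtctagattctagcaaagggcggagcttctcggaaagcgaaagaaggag
GAGGAA stood once in each of the stretches of Tlr1, Tlr8 (read on the other strand) and Tlr9, and in none of the other windows of members. These are 3 of 9 starts, where 23.25% of all 32851 windows held the motif. Tlr9 also held 1 TGANTCA (6.75% of all windows) and 1 AGATAA (9.99%), and Tlr3 held 1 AGATAA in the part that is not printed. Such matches are letters in a window and say nothing of whether a factor binds there.

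Levels of different genes were compared by the deposited RPKM (reads per kilobase of gene length, with the authors' scaling of each library, which is not library size alone). Cd14 had 1643 ± 706 RPKM in WT dim tdT and 2469 ± 272 RPKM in AS dim tdT cells (SD, n = 3 in each group, as for all values with an SD below). It was followed there by Myd88 with 66.8 ± 10.02 RPKM in WT and 89.0 ± 15.5 RPKM in AS, and by Tlr2 with 28.8 ± 13.1 RPKM in WT and 64.2 ± 10.2 RPKM in AS. Tlr6 (3.36 ± 0.806 RPKM in WT) and Tlr4 (2.87 ± 0.612 RPKM in WT) came next and did not differ beyond their spread. Tlr1 (1.86 ± 1.66 RPKM), Tlr7 (1.73 ± 0.609 RPKM), Tlr9 (0.525 ± 0.163 RPKM), Tlr8 (0.406 ± 0.439 RPKM) and Tlr3 (0.0873 ± 0.0460 RPKM) had lower means in WT dim tdT cells, where Tlr1, at 0.474 to 3.71 RPKM, covered the ranges of Tlr4 and Tlr7 and overlapped Tlr6, and Tlr9 and Tlr8 overlapped. In AS dim tdT cells the order after Tlr2 was Tlr6 (5.06 ± 3.15 RPKM), Tlr4 (3.93 ± 1.63 RPKM), Tlr7 (3.56 ± 0.681 RPKM), Tlr9 (2.23 ± 0.797 RPKM), Tlr1 (1.77 ± 0.148 RPKM), Tlr8 (0.479 ± 0.305 RPKM) and Tlr3 (0.0744 ± 0.0397 RPKM). Tlr6, Tlr4 and Tlr7 overlapped within their spread.

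In the bright tdT GEC the order was another. Myd88 (98.5 ± 27.1 RPKM) and Cd14 (90.7 ± 26.2 RPKM) led in WT and did not differ beyond their spread, and in AS Cd14 had 145 ± 36.8 RPKM and Myd88 104 ± 35.5 RPKM. Tlr4 (5.99 ± 1.99 RPKM in WT, 7.66 ± 1.34 RPKM in AS) and Tlr2 (4.08 ± 1.19 RPKM in WT, 6.38 ± 0.999 RPKM in AS) were the receptors with the most RNA and overlapped in both genotypes. Tlr3 followed them with 0.557 ± 0.160 RPKM in WT and 1.07 ± 0.120 RPKM in AS. Tlr7 and Tlr6 stayed at or under 0.379 RPKM in each bright tdT library. The gene length used for RPKM exceeded the summed exon length of Tlr3 (17568 against 5207 bases), Tlr7 (12174 against 4082 bases), Tlr8 (7965 against 3586 bases), Myd88 (4809 against 2576 bases), Tlr1 (6236 against 3346 bases), Tlr4 (7105 against 5556 bases) and Tlr6 (4127 against 3727 bases), so that the RPKM of these 7 genes is lower than a value per kilobase of exons would be, while that of Cd14 (1574 against 1732 bases) is higher. Per kilobase of exons Tlr7 moved to the fourth place in dim tdT cells of both genotypes, Tlr8 above Tlr9 in WT dim, Tlr1 above Tlr9 in AS dim and Myd88 above Cd14 in AS bright tdT GEC.

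Tlr2, Tlr3, Tlr4, Tlr6 and Tlr7 were listed in both tables, and their shares of the summed RPKM of these 5 receptors were taken in each library. Tlr2 made up 76.4 ± 7.96% in WT dim tdT and 84.0 ± 3.69% in AS dim tdT cells, against 38.4 ± 11.7% and 41.5 ± 1.75% in bright tdT GEC of WT and AS. Tlr4 made up 9.03 ± 5.37% and 4.95 ± 1.28% in dim tdT cells of WT and AS, against 55.1 ± 12.7% and 49.7 ± 1.06% in bright tdT GEC. No library of one gate reached into the range of the other for either receptor. Per kilobase of exons Tlr3 took a larger share of the bright tdT receptors, 13.4 ± 3.23% in WT and 17.98 ± 2.41% in AS in place of 5.14 ± 1.20% and 7.03 ± 1.11%, and the shares of Tlr2 in dim tdT cells were 67.3 ± 9.59% and 75.3 ± 3.12%.

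**Figure D2:**
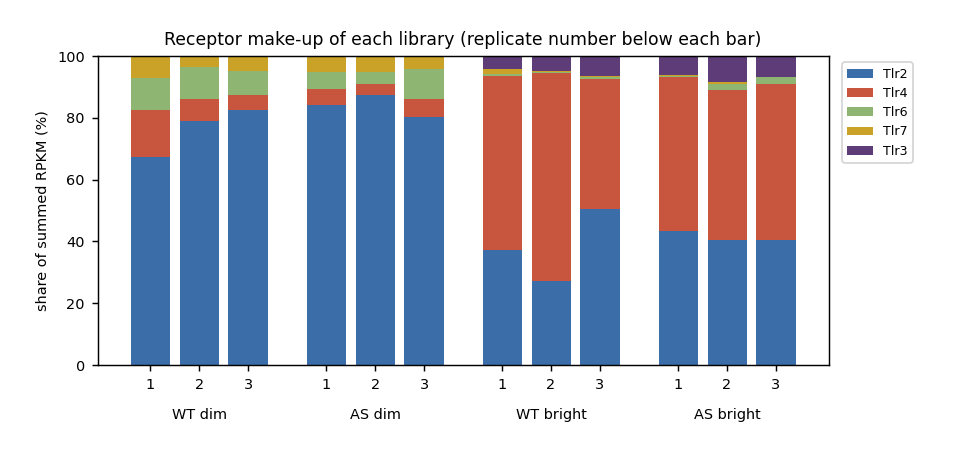
Share of each of 5 receptor genes in their summed RPKM (percent, stacked from 0 to 100) in each of the 12 libraries, with 1 bar per library in 4 groups. Tlr2 fills most of each dim tdT bar (67.4 to 87.5%), and Tlr4 and Tlr2 together fill most of each bright tdT bar, with Tlr3 visible in bright tdT libraries (4.16 to 8.27%).

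The bright tdT and the dim tdT cells of the same mice were compared within each genotype, in a fit that did not pair the libraries of a mouse. Tlr2, Tlr6, Tlr7 and Cd14 were lower in bright than in dim tdT cells of both genotypes, by 7.27-fold to 59.0-fold, and Tlr3 was higher, by 6.20-fold in WT and 14.5-fold in AS. Tlr4 was higher in bright tdT GEC of AS, while Myd88 did not pass the test in either genotype. In WT 5 of the 7 members passed (1 higher, 4 lower) where 25.3% of 14247 genes passed (13.8% higher and 11.5% lower), and in AS 6 of 7 (2 higher, 4 lower) where 55.1% of 14052 genes passed (28.6% higher and 26.5% lower). Tlr6 and Tlr7 in both genotypes and Tlr3 in WT reached the filter on low counts only through the gate in which they were high, so that their calls are no support for a direction of the members. Of the 4 members that reached it in both gates in WT, Tlr2 and Cd14 were lower and 0 higher, where 24.0% of 11157 such genes passed (13.9% higher and 10.1% lower). Of the 5 in AS, Tlr2 and Cd14 were lower and Tlr3 and Tlr4 higher, where 53.0% of 10972 such genes passed (28.2% higher and 24.8% lower). The pan-leukocyte, macrophage and monocyte, B cell and neutrophil sums were lower in bright tdT GEC, like Tlr2, Tlr6, Tlr7 and Cd14. The dendritic cell sums overlapped between the gates in WT. The endothelial sum was higher in bright tdT GEC, like Tlr3. The part of other cell types in the results was not tested.

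Of the surface receptors, Tlr2 was counted 588, 1029 and 1573 times in WT dim tdT libraries and 156, 144 and 245 times in WT bright tdT libraries of the same mice. In AS it had 2910, 1917 and 2630 counts in dim and 282, 244 and 304 in bright tdT GEC. Each bright tdT library lay below each dim tdT library of both genotypes. Bright over dim, its log2 fold change was -2.86 in WT (standard error 0.42, adjusted p = 0.00114) and -3.31 in AS (standard error 0.21, adjusted p = 6.14e-07).

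Tlr6, whose product pairs with TLR2, went from 123, 181 and 203 counts in WT dim to 5, 2 and 4 in WT bright tdT libraries, and from 248, 116 and 437 to 2, 16 and 22 in AS. The groups did not overlap, and the bright tdT counts were near the limit of detection, so that the size of the fold change is uncertain. For Tlr6 the log2 fold change was -5.78 in WT (standard error 0.60, adjusted p = 4.86e-05) and -4.46 in AS (standard error 0.65, adjusted p = 0.000259).

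Tlr4 had 310, 220 and 217 counts in WT dim and 551, 840 and 480 in WT bright tdT GEC, and in AS 428, 183 and 467 in dim and 762, 688 and 896 in bright tdT GEC. The bright tdT libraries lay above the dim tdT libraries in both genotypes. Its log2 fold change was 1.02 in WT, which missed the threshold (standard error 0.35, adjusted p = 0.0628), and 0.99 in AS (standard error 0.30, adjusted p = 0.0191). DESeq2 called it in WT as well (adjusted p = 0.0397), and in AS the call was lost without the bright tdT library of replicate 1 (adjusted p = 0.0563) or 3 (adjusted p = 0.0761). The genotypes' fold changes were not shown to differ (interaction 0.02, adjusted p = 0.989).

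Cd14 (chromosome 18, 36725067 to 36726798, minus strand), whose product hands lipopolysaccharide to TLR4, had 23681, 23379 and 47891 counts in WT dim and 1938, 1574 and 2816 in WT bright tdT GEC. In AS it had 53234, 42029 and 53807 counts in dim and 3404, 2513 and 3873 in bright tdT GEC. The lowest dim tdT library (23379 counts) was far above the highest bright tdT library (3873 counts). This gave a log2 fold change of -4.22 for WT (standard error 0.39, adjusted p = 9.26e-05) and -4.07 in AS (standard error 0.25, adjusted p = 5.27e-07). With Tlr4 on one side and Cd14 on the other, the ligand-binding receptor and its co-receptor stood in opposite directions in AS.

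Among the endosomal receptors, Tlr3, which binds double-stranded RNA, was the member with higher levels in bright tdT GEC of both genotypes. It had 8, 27 and 21 counts in WT dim and 101, 148 and 183 in WT bright tdT GEC, and 15, 9 and 26 in AS dim and 231, 290 and 293 in AS bright tdT GEC. The groups did not overlap. Its log2 fold change was 2.63 in WT (standard error 0.58, adjusted p = 0.00953) and 3.86 in AS (standard error 0.38, adjusted p = 1.54e-05).

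Tlr7, which binds single-stranded RNA, had 249, 167 and 355 counts in WT dim and 25, 10 and 8 in WT bright tdT GEC. In AS it had 721, 439 and 517 counts in dim and 7, 19 and 5 in bright tdT GEC. Each dim tdT library lay above each bright tdT library. Its log2 fold change was -4.46 in WT (standard error 0.59, adjusted p = 0.000634) and -5.88 in AS (standard error 0.38, adjusted p = 7.58e-07).

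Myd88, the adaptor, had 4122, 3207 and 4442 counts in WT dim and 6804, 5072 and 9126 in WT bright tdT GEC, and 5856, 4303 and 6269 in AS dim and 7633, 4820 and 9074 in AS bright tdT GEC. The AS groups overlapped, and the WT groups did after TMM scaling but not in counts or CPM. Bright over dim, the log2 fold change of Myd88 was 0.52 in WT (95% interval -0.08 to 1.11, adjusted p = 0.186) and 0.26 in AS (95% interval -0.32 to 0.84, adjusted p = 0.430). These intervals leave out changes of the size found for Tlr2, Tlr3, Tlr6, Tlr7 and Cd14 in the same fits.

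**Figure D3:**
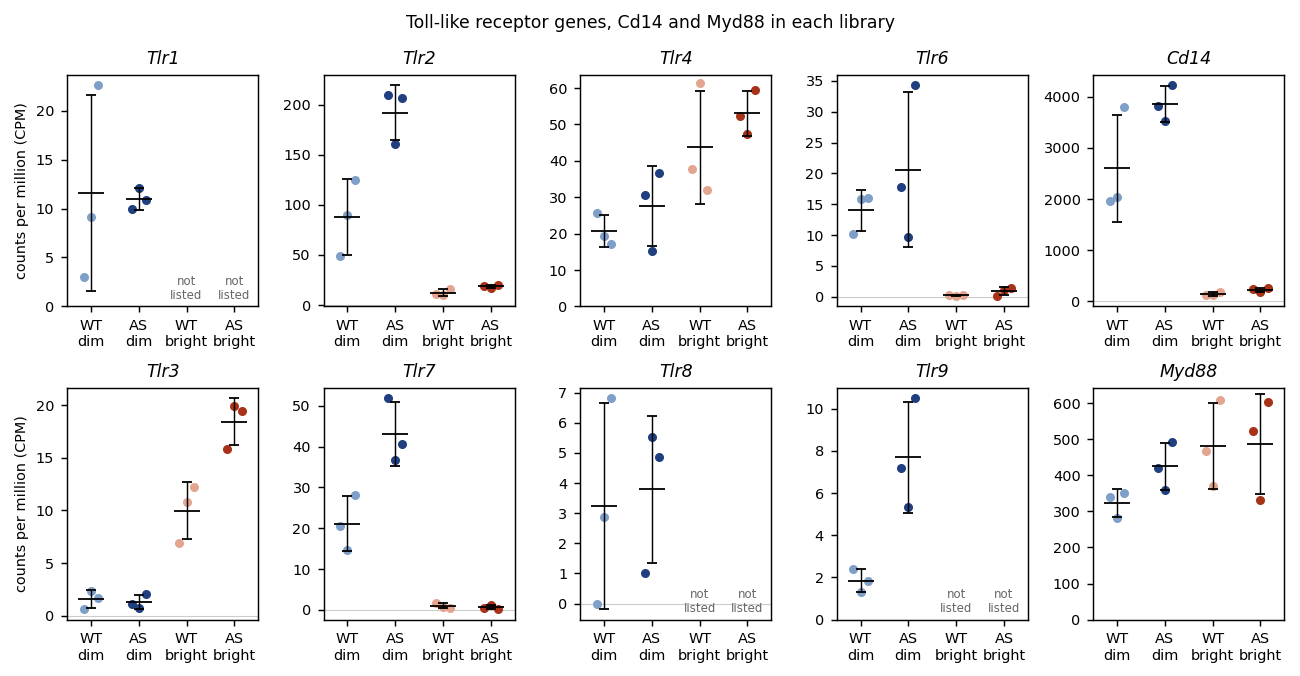
CPM (linear axes from 0, 1 panel per gene) of the 10 genes in each library, as points in 4 groups of 3, with the mean as a bar and the SD as its error. Tlr2, Tlr6, Tlr7 and Cd14 are high in dim tdT libraries, Tlr3 in bright tdT libraries, Myd88 has the smallest fold change between the gates, and Tlr1, Tlr8 and Tlr9 are not listed in the bright tdT table.

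**Figure D4:**
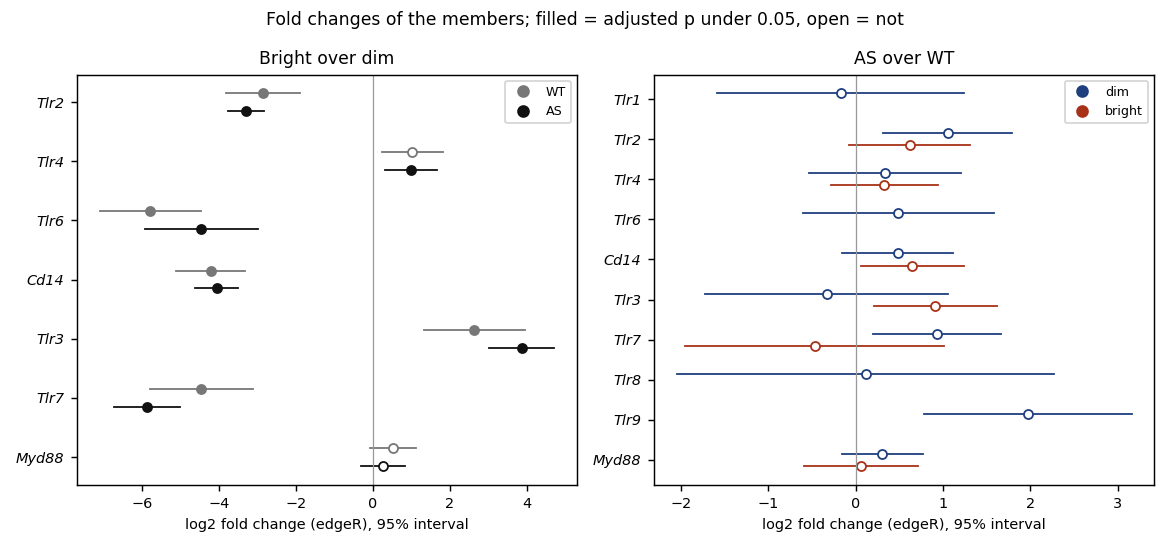
Log2 fold changes of the members with 95% intervals as lines, filled where the adjusted p was under 0.05. The left panel gives bright over dim tdT cells in WT and AS. The right panel gives AS over WT in dim tdT cells and in bright tdT GEC. On the left 4 genes stand far below 0 and Tlr3 above it, and on the right all points are open, with Tlr9 farthest from 0 (1.97).

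AS and WT mice were compared within each gate, to see which members differ with the loss of Col4a5. No member passed the threshold of edgeR's quasi-likelihood test in dim tdT cells (0 of 10, where 8.63% of 14637 genes passed) or in bright tdT GEC (0 of 6 tested, where 0.452% of 14396 genes passed). At an unadjusted p under 0.05 there were 3 members in dim (Tlr2, Tlr7 and Tlr9, where 26.3% of all genes had such a p) and 2 in bright tdT GEC (Tlr3 and Cd14, where 21.8% had one). DESeq2 and edgeR's likelihood ratio test each called 2 in dim, Tlr2 and Tlr9, and 0 in bright tdT GEC. The median log2 fold change of the members was 0.41 in dim and 0.47 in bright tdT GEC, against -0.02 and -0.03 over all genes tested. This comparison shares its WT and AS libraries with that of bright and dim tdT cells.

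Tlr9, which binds unmethylated CpG DNA, had 29, 15 and 23 counts in WT dim and 100, 64 and 134 in AS dim tdT cells, so that each AS library lay above each WT library. These are 1.84 ± 0.541 CPM in WT and 7.69 ± 2.62 CPM in AS. Its log2 fold change was 1.97 (standard error 0.52, 95% interval 0.78 to 3.16), and its adjusted p of 0.0539 just missed the threshold. Over the alternatives the adjusted p ranged from 0.00768 (DESeq2) to 0.181.

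Tlr2 in dim tdT cells had 87.7 ± 38.1 CPM in WT and 192 ± 27.4 CPM in AS, with no overlap between the libraries whose counts are given above. The log2 fold change was 1.05 (standard error 0.32, 95% interval 0.32 to 1.79, adjusted p = 0.0787). Without replicate 3 of WT, the WT library with the most Tlr2, it was 1.43 and passed (adjusted p = 0.0247), and without replicate 1 of WT it was 0.78 (adjusted p = 0.115). Over its 13 alternatives Tlr2 was called in 3, with adjusted p-values of 0.0247 to 0.242. Cd14 also passed without that library (log2 fold change 0.89, adjusted p = 0.0186), while with all libraries its value was 0.48 (adjusted p = 0.315), from 2597 ± 1037 CPM in WT and 3856 ± 356 CPM in AS. That was the one call of Cd14 among 13 alternatives, and without replicate 2 of WT its value was 0.26 (adjusted p = 0.616).

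Tlr7 in dim tdT cells had 21.1 ± 6.78 CPM in WT and 43.0 ± 7.81 CPM in AS, again without overlap, and a log2 fold change of 0.93 (standard error 0.32, 95% interval 0.20 to 1.67, adjusted p = 0.108). After TMM scaling these 3 of 10 members were those whose groups did not overlap, all with AS above WT, where 31.2% of all genes tested had no overlap in either direction. The sums of 7 of 10 marker lists separated the same groups. The dendritic cell markers summed to 55.4 to 82.9 CPM in WT and 116 to 144 CPM in AS, and the pan-leukocyte markers, given above, were higher in AS as well, while the endothelial, podocyte, mesangial and mural, and proximal tubule sums were lower in AS. The macrophage and monocyte markers did not overlap either (2914 to 4691 CPM in WT and 7445 to 9397 CPM in AS), all 8 had a positive log2 fold change and 5 of 8 passed the test. Their largest was Fcgr1 with a log2 fold change of 3.28 (adjusted p = 0.0210). The sums of B cell markers overlapped (518 to 1006 CPM in WT, 603 to 957 CPM in AS), as did those of neutrophil and of T and NK cell markers. The part of these cell markers in the values of Tlr2, Tlr7 and Tlr9 was not tested.

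The other members overlapped between WT and AS in dim tdT cells after TMM scaling. In CPM Myd88 did not (280.3 to 352 in WT and 360.2 to 492 in AS). Tlr1, whose product pairs with TLR2, was counted 36, 105 and 286 times in WT and 139, 145 and 138 times in AS, so that the WT mice spread over a wide range and the AS mice lay close together (log2 fold change -0.17, adjusted p = 0.893). Tlr8 was at 0, 33 and 86 counts for WT and at 14, 66 and 62 for AS (0.11, adjusted p = 0.953). In both genes replicate 1 of WT was the lowest and replicate 3 of WT the highest library. The neutrophil markers stood in the same order in these WT libraries, with sums of 310, 487 and 1220 CPM in replicates 1, 2 and 3, as did the B cell, dendritic cell and podocyte markers. The other 6 lists did not, among them the macrophage and monocyte markers (3486, 2914 and 4691 CPM), the pan-leukocyte markers (6643, 6014 and 9231 CPM) and the proximal tubule markers (5020, 1272 and 1087 CPM), in which replicate 1 stood apart. Replicate 3 is also the library without which Tlr2 and Cd14 passed, and the part of these markers was not tested. Tlr3 (log2 fold change -0.33), Tlr4 (0.34), Tlr6 (0.49) and Myd88 (0.30) had adjusted p-values of 0.392 to 0.775.

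In bright tdT GEC Tlr3 had 9.98 ± 2.73 CPM in WT and 18.4 ± 2.24 CPM in AS, and each AS library lay above each WT library. After TMM scaling it was the one of 6 members tested without overlap (24.5% of all genes tested had none), while in CPM Tlr2 had none either (10.5 to 16.3 in WT and 16.8 to 20.2 in AS). For Tlr3 the log2 fold change was 0.91 (standard error 0.32, 95% interval 0.21 to 1.62, adjusted p = 0.144). Cd14 had 145 ± 37.8 CPM in WT and 221 ± 43.3 CPM in AS, with overlapping libraries (log2 fold change 0.65, adjusted p = 0.191), and Tlr2 had 12.5 ± 3.30 CPM in WT and 18.8 ± 1.76 CPM in AS (0.62, adjusted p = 0.278). Tlr4 (0.33, adjusted p = 0.528) and Myd88 (0.06, 95% interval -0.59 to 0.71, adjusted p = 0.929) overlapped. Tlr7, at 5 to 25 counts, had a log2 fold change of -0.47 (adjusted p = 0.729), and Tlr6, at 2 to 22 counts, did not pass the filter on low counts.

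Whether the difference between AS and WT depended on the gate was tested as an interaction in all 12 libraries. The libraries of a mouse were not paired in this fit either. None of the 7 members passed (edgeR's quasi-likelihood test, 3.77% of 15084 genes passed), DESeq2 called 0 too, and 0 of 7 had an unadjusted p under 0.05 (18.5% of all genes had one). The interaction was largest in size for Tlr6 (1.38, 95% interval -1.08 to 3.83), Tlr7 (-1.36, 95% interval -3.06 to 0.34) and Tlr3 (1.28, 95% interval -0.27 to 2.83), with adjusted p-values of 0.369 to 0.574. Their intervals are wide and include 0.

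Genes around the members in the pathway were taken from 8 lists by role with 66 genes in all. Of the 56 tested for bright over dim tdT cells, 5 were higher and 25 lower in WT, and 9 were higher and 30 lower in AS, and of those that reached the filter in both gates, 3 of 41 were higher and 14 lower in WT and 8 of 44 higher and 20 lower in AS. Over all genes tested 13.8% were higher and 11.5% lower in WT, and 28.6% higher and 26.5% lower in AS, and the counts of each role below stand beside these shares. As for the members, a gene that reached the filter only through the gate in which it was high had to differ, so that the counts over all genes tested of a role are no support for its direction. Of the other receptors, Tlr13, which binds bacterial ribosomal RNA, had 1615, 458 and 1358 counts in WT dim and 1, 3 and 4 in WT bright tdT GEC, and 2055, 1595 and 1909 in AS dim and 7, 10 and 3 in AS bright tdT GEC (log2 fold change -8.98 in WT and -8.24 in AS, adjusted p = 3.21e-06 and 3.16e-08). Tlr13 reached the filter only through the dim gate, and its bright tdT counts were near the limit of detection. The size of its fold change is therefore uncertain, and its call is no support for a direction. Tlr5 and Tlr11 were not listed in the bright tdT table, and Tlr12 did not pass.

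Among the accessory proteins, 4 of 7 tested were lower in WT and 4 lower and 1 higher in AS, and of the 5 past the filter in both gates 3 were lower in each genotype. Unc93b1, the chaperone that carries the endosomal receptors out of the endoplasmic reticulum, had a log2 fold change of bright over dim of -2.17 in WT (adjusted p = 0.000222) and -2.34 in AS (adjusted p = 5.02e-05), opposite in direction to Tlr3, one of the receptors it carries. Cd180, a receptor relative of B cells and macrophages, had 392 to 740 counts in WT dim and 1 to 2 in WT bright tdT GEC (adjusted p = 2.87e-06), and in AS its log2 fold change was -6.61 (adjusted p = 2.39e-06). Ly96, which encodes the MD-2 subunit that binds lipopolysaccharide with TLR4, did not pass in any comparison and had 50 to 97 counts in WT dim, 153 to 181 in WT bright, 74 to 150 in AS dim and 62 to 85 in AS bright tdT GEC.

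The other adaptors (2 of 4 tested) gave 0 calls of edgeR's test in both genotypes, also at an unadjusted p under 0.05, and their median was -0.02 (WT) and -0.24 (AS) on the log2 scale. Of 14 kinases and ubiquitin ligases, 1 was lower in WT and 5 in AS by edgeR's test, and 0 were higher in either genotype, where 3 (WT) and 5 (AS) had an unadjusted p under 0.05 in any direction. Irak2, a kinase recruited by MyD88, was at -1.83 in WT and -1.81 in AS (adjusted p = 0.00119 and 1.79e-05), and Irak4, the first kinase of the complex, -1.60 in AS (adjusted p = 0.000306). Of 6 transcription factors, 3 were lower in WT, and 2 were lower and 1 higher in AS (past the filter in both gates were 5 in WT, of which 2 were lower, and all 6 in AS). Irf5, which acts below TLR7 and TLR9, had 1731 to 2059 counts in WT dim and 4 to 9 in WT bright tdT GEC (log2 fold change -8.39 in WT and -7.57 in AS, adjusted p = 1.38e-06 and 3.63e-08). Nfkb1 fell less, with -1.29 in WT and -1.10 in AS (adjusted p = 0.0168 and 0.000294).

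Of 7 negative regulators tested, 4 were lower in WT, and 5 were lower and 2 higher in AS, led by Dok3 (-5.29 in WT and -5.92 in AS, adjusted p = 0.000965 and 3.17e-07) and Tnfaip3, which encodes the deubiquitinase A20 (-3.05 and -2.61, adjusted p = 0.000132 and 1.22e-06). Of the 6 past the filter in both gates, 3 were lower in WT, and 4 were lower and 2 higher in AS. Of 13 inducible outputs tested, 10 were lower and 2 higher in WT, and 11 were lower and 2 higher in AS. Past the filter in both gates were 8, of which 5 were lower and 2 higher in WT, and 6 lower and 2 higher in AS. The chemokine genes Ccl3 and Ccl5 were the farthest in WT, with log2 fold changes of -7.87 and -7.83 (adjusted p = 3.20e-06 and 2.28e-06). In AS these were Ccl5, with 1091 to 1373 counts in dim and 1 to 3 in bright tdT GEC (adjusted p = 3.91e-09), and the cytokine gene Il1b at -7.66 (adjusted p = 3.54e-08). Cxcl1 and Cxcl10, also chemokine genes, stood on the side of Tlr3 and were the only 2 outputs higher in bright tdT GEC of both genotypes (Cxcl10 with 158 ± 15.2 CPM in WT bright against 21.6 ± 6.32 CPM in WT dim tdT cells). They fall outside the rule for named genes and were chosen after their values had been seen. Of 5 endogenous ligands tested, 3 were higher and 2 lower in both genotypes. Past the filter in both gates were 1 in WT and 3 in AS, all higher. The 2 lower genes reached it through the dim gate alone, so that these counts show no split. S100a9 (-7.26 in WT and -7.93 in AS, adjusted p = 0.00119 and 7.13e-07) and Vcan, the gene of versican (-5.52 and -7.89, adjusted p = 9.93e-05 and 2.15e-06), were the farthest.

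**Figure D5:**
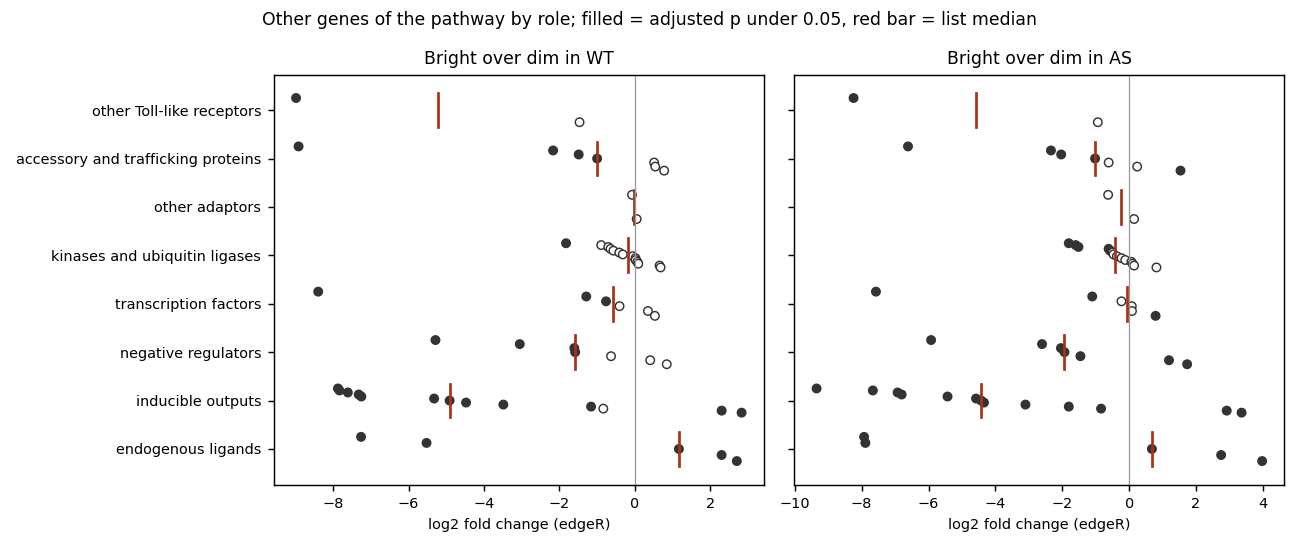
Log2 fold change of bright over dim tdT cells in WT (left) and AS (right) for the other genes of the pathway, with 1 point per gene in rows by role, filled where the adjusted p was under 0.05, and the median of each list as a red bar. Points and medians include genes that reached the filter through 1 gate only, such as 5 of the 13 inducible outputs. The other adaptors have a median of -0.02 on the left and -0.24 on the right. The kinases and ubiquitin ligases have -0.19 on the left and -0.42 on the right.

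For AS over WT in dim tdT cells 2 of the 61 pathway genes tested passed, both higher in AS, a smaller share than the 8.63% of all genes, and the median of the 61 was 0.44 on the log2 scale, against -0.02 over all genes. These were Unc93b1 (276.8 ± 29.2 CPM in WT and 636 ± 136 CPM in AS, log2 fold change 1.11, standard error 0.20, adjusted p = 0.0229) and Ikbkb, which encodes the IKK-beta kinase of NF-kappaB (0.78, standard error 0.17, adjusted p = 0.0321). Both moved with the macrophage and monocyte markers given above, and their part was not tested. In bright tdT GEC 0 of 48 passed edgeR's test. An unadjusted p under 0.05 was found for 19 of 61 in dim tdT cells (26.3% of all genes) and 16 of 48 in bright tdT GEC (21.8% of all genes). The interaction had 1 of 56, Irf8, an interferon regulatory factor (1.62, standard error 0.40, adjusted p = 0.0421), with 574 ± 117 CPM in WT bright and 1598 ± 594 CPM in AS bright against 947 ± 161 and 968 ± 9.02 CPM in dim tdT cells.

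The patterns of the members over the 12 libraries were compared with those of 15084 genes by the root mean square difference of log2 CPM, each gene centred on its own mean. Myd88 was nearest to Gnb2 (0.153) and Tagln2 (0.164), and Tlr2 to Map3k14 (0.293) and Vim (0.296). Cd14 was nearest to Nfkbie (0.323) and Efhd2 (0.330), Tlr4 to Psmd7 (0.304) and Hmbox1 (0.314), and Tlr7 to Tpd52 (0.324) and Mapkapk3 (0.415). Tlr3 had Nectin2 (0.355) and Ptgs1 (0.422) nearest, and Tlr6 had Ikbke (0.593) and Crybg1 (0.608), at the largest distance of the 7 members. All 12 libraries enter each distance, so that a step between the gates counts in it as well as the spread within a gate.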

How the data were processed

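The authors trimmed the paired reads, aligned them with STAR 2.6.0c to GRCm38.p5 with Gencode M16 and deposited the count per gene, not normalized, for 17811 genes in dim tdT and 17521 in bright tdT GEC. Per the file headers, RPKM was computed by the authors from these counts and was used only for levels between genes. Their fold changes, p-values and FDR of AS over WT were not used, and 0 columns of other samples were left out. The strand counted is not given in the sources used here. The 92 ERCC spike-ins, 0.0286 to 0.282% of counts, stayed out of library sizes and tests.

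Members and lists were chosen with earlier results of these data known. By rule all 10 members are named, with the 2 farthest called genes of each pathway list. The defining markers and the 2 genes most like each member are named too. Ly96, Tlr5, Tlr11, Tlr12, Cxcl1 and Cxcl10 fall outside this rule. Counts were tested with edgeR 4.0.16 (R 4.3.3) by its quasi-likelihood test in the form of version 4, after TMM and filterByExpr (minimum count 10), and the model was tested on simulated data. AS over WT used the 6 libraries of a gate, bright over dim those of a genotype on the 15768 genes in both tables, and the interaction all 12. Symbols with 2 rows (Itgam) were read from the row with more counts. The labels give the same mouse number to the dim and the bright tdT library of an animal. Their deviations from the group means had a mean correlation of 0.197 in WT and 0.213 in AS. The means between mice, -0.0985 and -0.104, largely follow from centring on the group means and are no separate evidence. WT and AS share only a number. Alternatives were RLE scaling, library sizes alone, DESeq2 1.42.0, a likelihood ratio test, no filter, the study's cut-offs, a replicate block, each library left out and, added after the data had been seen, edgeR's version 3 fit.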

Additional observations from a re-analysis of the deposited data

How the results depend on the processing

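For bright over dim tdT cells the 5 members called in WT and the 6 in AS numbered 5 to 6 under each alternative, where leaving out a library gave 5 in WT and 5 to 6 in AS. A replicate block for the mouse left these counts of members at 5 and 6 and changed no member's call. It gave 4444 and 7755 genes in all for bright over dim, and 877 in place of 569 for the interaction. As a shared number, which pairs no mice of WT and AS, the block gave 494 genes in place of 1263 in dim tdT and 16 in place of 65 in bright tdT GEC for AS over WT.

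Member calls for AS over WT in dim tdT cells rose from 0 to 2 (DESeq2 and the likelihood ratio test), 1 (library sizes alone) and 1 (the study's cut-offs), and were 0 to 2 with a library left out, with 2 without WT replicate 3. The genes called in that comparison were 2213 with DESeq2, 1946 with the likelihood ratio test and 582 with edgeR's version 3 fit, and 0 to 1825 with a library left out. In bright tdT GEC they were 1078 with DESeq2, 827 with the likelihood ratio test, 39 without the filter and 798 with the study's cut-offs. The version 3 fit gave 0, and leaving out a library, which also leaves fewer mice in a group, gave 0 to 281. The background of this comparison therefore depends on these choices. Under the study's cut-offs 4013 genes in place of 7743 passed for bright over dim in AS. The interaction had 1184 genes with DESeq2, 1114 with the likelihood ratio test, 1506 with the study's cut-offs and 252 to 857 with a library left out. The causes of these differences were not tested.

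Of 560 alternatives of the members' log2 fold changes, 21 reversed a sign, each in a value that had not passed. The block turned Tlr1 in dim tdT cells to 0.15, and leaving out a library gave -0.61 to 0.82 for Tlr1, -0.46 to 1.36 for Tlr8 and -0.10 to 0.78 for Tlr6 there, and -0.19 to 0.32 for Myd88 and -1.18 to 0.19 for Tlr7 in bright tdT GEC. The interaction of Tlr4 was -0.020 with RLE scaling, -0.14 with library sizes alone, which moved the median of all genes by -0.16, and -0.019 with DESeq2. With a library left out it was -0.40 to 0.36 for Tlr4, -0.45 to 0.033 for Myd88 and -0.20 to 0.47 for Cd14. Cd14 had 26.1 times the level of Myd88 in dim tdT cells by RPKM and 12.7 times per kilobase of exons.

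With 3 mice a group, low members (Tlr3 in dim, Tlr6 and Tlr7 in bright tdT GEC, each under 30 counts) limit what can be told, and a gene missing from a table has no value there.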
